A study of Canis lupus familiaris with 34 samples.

Results

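Genes grouped under heritable mitral valve prolapse in people were followed in the mitral valves of 34 Cavalier King Charles Spaniels. The breed is prone to myxomatous mitral valve disease (MMVD), the slow thickening and degeneration of the valve leaflets. The 9 genes are FLNA, DCHS1, FAT4, DZIP1, TNS1, LMCD1, GLIS1, PLD1 and PTPN14. They were picked by symbol and not by a measured value, although earlier results of these data were known. All 9 were found among the 22035 gene symbols (23768 counted features) of the deposited table. All 9 also passed the filter of at least 100 counts summed over the dogs, which 19568 features passed.

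The dogs were privately owned, about 10 years old and of mixed severity. Of these, 19 (written 10y-noCHF, n = 19; 10 females and 9 males) had no congestive heart failure (CHF), and the group ran from a dog without identifiable heart disease to dogs with enlarged hearts. The others (10y-MMVD-CHF, n = 15; 6 females and 9 males) had developed CHF from MMVD. RNA from excised mitral valves was used for poly-A sequencing, and the part of each valve taken was not stated. A lower value in bulk tissue can mean fewer cells of a type or less RNA per cell, and these cannot be told apart. Age, stage and treatment were not paired with single dogs in the labels, and were not analysed here.

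Mitral valve prolapse is the bulging of a leaflet into the atrium, and the inherited forms in people have been traced to genes acting in the cells that build the leaflet. FLNA encodes filamin A, which crosslinks actin and ties it to integrins. DCHS1 and FAT4 encode giant cadherins that bind each other between neighbouring cells and orient tissues, and FAT signalling meets the Hippo pathway, in which PTPN14, a phosphatase, holds back the coactivator YAP. DZIP1 acts in the primary cilium, a sensory projection of the valve cell. TNS1 (tensin 1, an adaptor of focal adhesions), LMCD1 (a LIM domain corepressor of GATA6) and GLIS1 (a zinc finger transcription factor) came from association or functional work on the same condition. PLD1 (phospholipase D1, which makes phosphatidic acid) was grouped with them, and its own tie to the condition was not examined here.

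The counting set limits on what the values hold. On the canFam4 assembly, FLNA lies on chromosome X (chrX:123246022-123270903, plus strand), DCHS1 on chromosome 21 (chr21:30435644-30470667, minus strand), FAT4 on chromosome 19 (chr19:15965330-16140099, minus strand) and PTPN14 on chromosome 7 (chr7:12197303-12377942, minus strand). DZIP1 is on chromosome 22 (chr22:46358567-46410445, minus strand), TNS1 on chromosome 37 (chr37:24454830-24590902, minus strand), LMCD1 on chromosome 20 (chr20:9588788-9654164, minus strand), GLIS1 on chromosome 5 (chr5:55693845-55917624, plus strand) and PLD1 on chromosome 34 (chr34:36168229-36294733, minus strand). DZIP1 was counted over its canine RefSeq exons, 3.4 kb in all. The other 8 were counted over the span of an aligned human gene, introns included. The TNS1 span covered 69.1% of the RefSeq gene and the PLD1 span 61.8%. The RefSeq annotation lists other genes inside 5 of the spans, the widest being an lncRNA in 24.75% of the DCHS1 span, a protein-coding gene in 12.2% of the FLNA span and lncRNAs in 9.44% and 9.97% of the PTPN14 span. Strand was not used in counting, so reads of these genes and of the members cannot be told apart.

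Summed counts ran from 46185256 in the shallowest library to 82361245 in the deepest. The valve interstitial cell markers that define this tissue (8 of 8 measured, collagens, DCN, LUM, VIM, PDGFRA and POSTN) summed to 13100 to 34090 CPM (normalised counts, scaled by TMM to a common library size) in 10y-noCHF and 15730 to 35920 CPM in 10y-MMVD-CHF. Heart muscle was present in very unequal amounts. The 19 cardiomyocyte markers summed to 57.9 to 28750 CPM in 10y-noCHF and 82.6 to 60330 CPM in 10y-MMVD-CHF. A pair of libraries stood apart from the rest, CAV1047, with the lowest total counts and the highest cardiomyocyte level, and CAV614, with the highest red blood cell marker level, both 10y-MMVD-CHF. The CHF comparison, the correlations among the 9 genes and those with the cardiomyocyte markers were also run without this pair.

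Levels were compared between genes per kilobase of counted length. FLNA was highest, at 46.1 ± 9.49 CPM per kb (SD, n = 34), and above DZIP1 in 34 of 34 dogs. DZIP1 stood at 27.9 ± 4.05 CPM per kb over its exons but at 1.80 CPM per kb over its human span, since 91.9% of the reads on the span fell on the exons, so its place in the order depends on the kind of feature. Next came TNS1 (3.51 ± 1.27), DCHS1 (2.63 ± 0.561) and LMCD1 (1.98 ± 0.524 CPM per kb). TNS1 was above DCHS1 in 22 of 34 dogs and DCHS1 above LMCD1 in 29 of 34, and the means of TNS1 and DCHS1 differed by less than the SD of TNS1. FAT4 (0.692 ± 0.228) was above PTPN14 (0.448 ± 0.0884) in 32 of 34 dogs. PTPN14 and PLD1 (0.439 ± 0.117) could not be ordered, PTPN14 being higher in 19 of 34. GLIS1 was lowest, at 0.0339 ± 0.0121 CPM per kb, with PLD1 above it in 34 of 34. The spans hold introns, so this order also follows intron length. Undivided by length, LMCD1 (129.1 CPM) and FAT4 (120.9 CPM) were above DCHS1 (92.2 CPM), and PTPN14 (81.0 CPM) was above PLD1 (55.5 CPM).

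**Figure D1:**
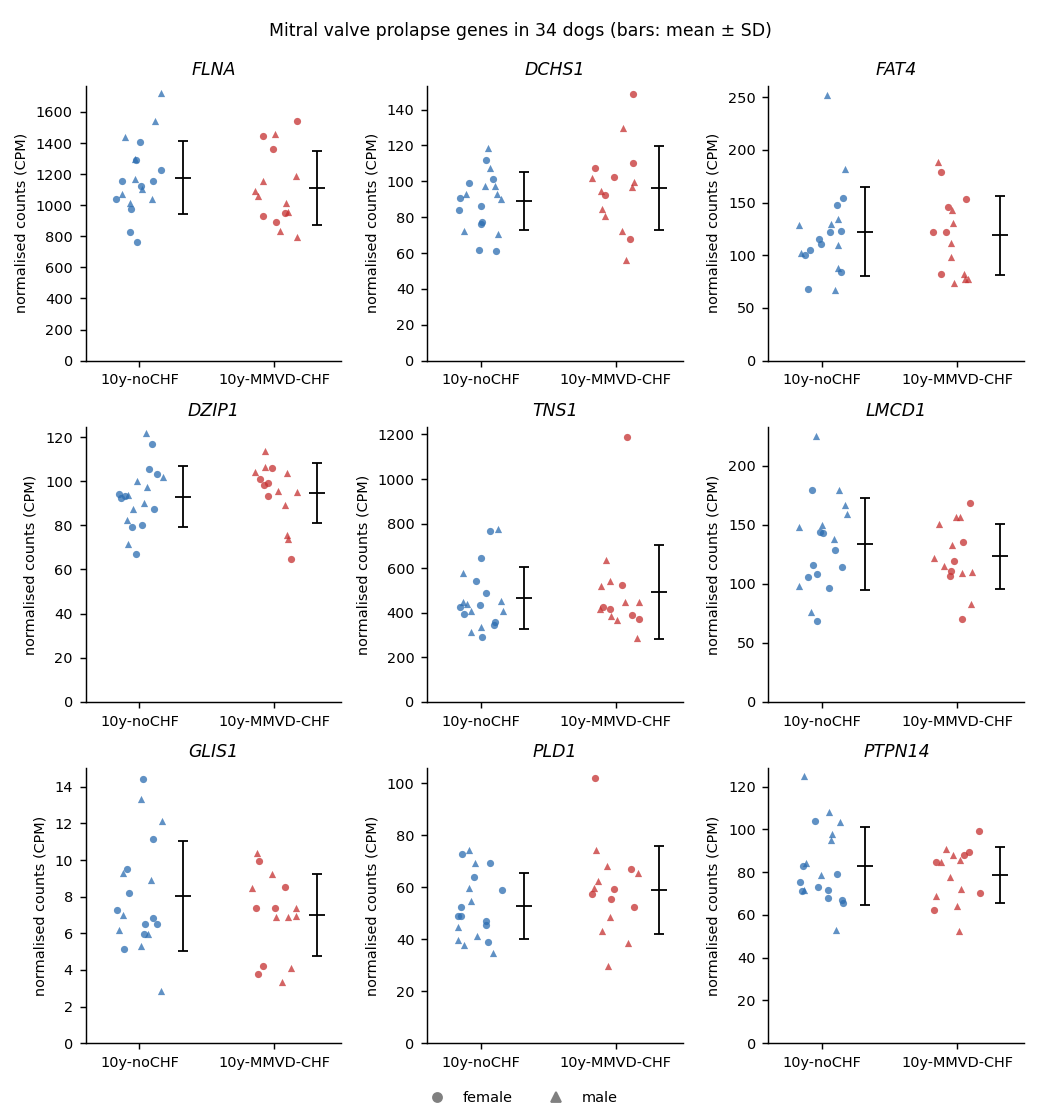
Normalised counts (CPM, vertical axis from 0) of each gene in the 19 10y-noCHF dogs (blue) and the 15 10y-MMVD-CHF dogs (red), circles for females and triangles for males, with the mean ± SD of each group beside the points. The 2 groups overlap for all 9 genes, and a single 10y-MMVD-CHF female, CAV1047, stands at 1188 CPM for TNS1.

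The first question was whether any of the 9 genes differed between dogs with and without CHF. None did by edgeR's quasi-likelihood test with sex as a fixed effect (0 of 9 at a false discovery rate, FDR, below 0.1), where 0.118% of all features passed (23 of 19568). DESeq2 and limma voom also called 0 of 9, and at an unadjusted p below 0.05 the count was 0 with each of the 3 tools, where 6.31% of all features passed that limit with edgeR. DESeq2 called 0.327% of all features. The estimate was above 0 for 4 genes and below 0 for 5, between -0.20 and 0.18 on the log2 scale. Over all features the median was 0.01.

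FLNA had 765 to 1721 CPM (median 1155) in 10y-noCHF and 794 to 1539 CPM (median 1058) in 10y-MMVD-CHF. All 15 CHF dogs lay inside the range of the others. The log2 fold change was -0.09 ± 0.10 (SE; edgeR FDR = 0.945), a fold of 0.942 with a 95% interval from 0.815 to 1.09, and 6 of 15 CHF dogs were above the 10y-noCHF median. Leaving out 1 dog gave -0.13 (without CAV1519) to -0.04 (without CAV1049).

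Neither member of the cadherin pair passed the test. DCHS1 had 61.4 to 118.7 CPM (median 90.7) without CHF and 56.2 to 148.7 CPM (median 97.0) with CHF. Its log2 fold change was 0.12 ± 0.10 (edgeR FDR = 0.919), a fold of 1.08 (95% interval 0.936 to 1.26), and 10 of 15 CHF dogs were above the 10y-noCHF median. Without CAV1519, a CHF female, it was 0.06. FAT4 had 67.2 to 251.8 CPM (median 115.2) against 73.3 to 188.3 CPM (median 121.7). Its groups overlapped throughout, and the highest value belonged to a dog without CHF. Its log2 fold change was -0.04 ± 0.16 (edgeR FDR = 0.986), a fold of 0.973 (0.781 to 1.21), with 8 of 15 above. Without CAV614 and CAV1047 the estimate was 0.04, and without CAV1939 or CAV1049, 10y-noCHF males, it was 0.06 and 0.01.

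PTPN14, the phosphatase acting on YAP, had 52.8 to 124.9 CPM (median 78.8) without CHF and 52.4 to 99.3 CPM (median 84.6) with CHF. The log2 fold change was -0.08 ± 0.10 (edgeR FDR = 0.945; 8 of 15 above), a fold of 0.944 (0.825 to 1.08), and it was -0.04 without CAV1939 and -0.05 without CAV373. All but 1 of the CHF dogs lay inside the range of the others, so the groups overlapped.

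The cilium gene DZIP1 was the steadiest of the 9. It had 67.2 to 121.7 CPM (median 93.2) without CHF and 64.6 to 113.9 CPM (median 98.3) with CHF, a coefficient of variation of 14.5% over all dogs. Its log2 fold change of 0.02 ± 0.08 (edgeR FDR = 0.985; 11 of 15 above) gave the narrowest interval, a fold of 1.02 (0.913 to 1.13). Counted over the human span it was 0.01, and leaving out 1 dog gave 0.00 to 0.06, the highest without CAV1047.

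TNS1 had 291.2 to 775.7 CPM (median 437.0) without CHF and 288.5 to 1188 CPM (median 426.2) with CHF. CAV1047 was the only CHF dog above 636 CPM. The log2 fold change was 0.09 ± 0.15 (edgeR FDR = 0.964; 7 of 15 above), a fold of 1.06 (0.856 to 1.32), and it was -0.08 without CAV1047. LMCD1 had 68.4 to 224.9 CPM (median 138.1) against 70.6 to 168.7 CPM (median 119.4). The 15 CHF dogs all lay inside the range of the others, with a log2 fold change of -0.14 ± 0.13 (edgeR FDR = 0.921; 4 of 15 above), a fold of 0.908 (0.759 to 1.09), and it was -0.08 without CAV1049.

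GLIS1 was the least abundant and among the most variable, at 2.84 to 14.4 CPM (median 7.02) without CHF and 3.34 to 10.4 CPM (median 7.36) with CHF. Its coefficient of variation was 35.7%, close to the 36.1% of TNS1. The log2 fold change of -0.20 ± 0.18 (edgeR FDR = 0.921; 8 of 15 above) had the widest interval, a fold of 0.873 (0.676 to 1.13), and it was -0.13 without CAV444. PLD1 had 34.6 to 74.5 CPM (median 49.1) against 29.9 to 102.2 CPM (median 59.3), and both ends of the range over all dogs were CHF dogs. Its log2 fold change, 0.18 ± 0.12 (edgeR p = 0.165, FDR = 0.866; 11 of 15 above), had the lowest p of the 9, and the interval of the fold ran from 0.948 to 1.35. Without CAV1047 it was 0.10.

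**Figure D2:**
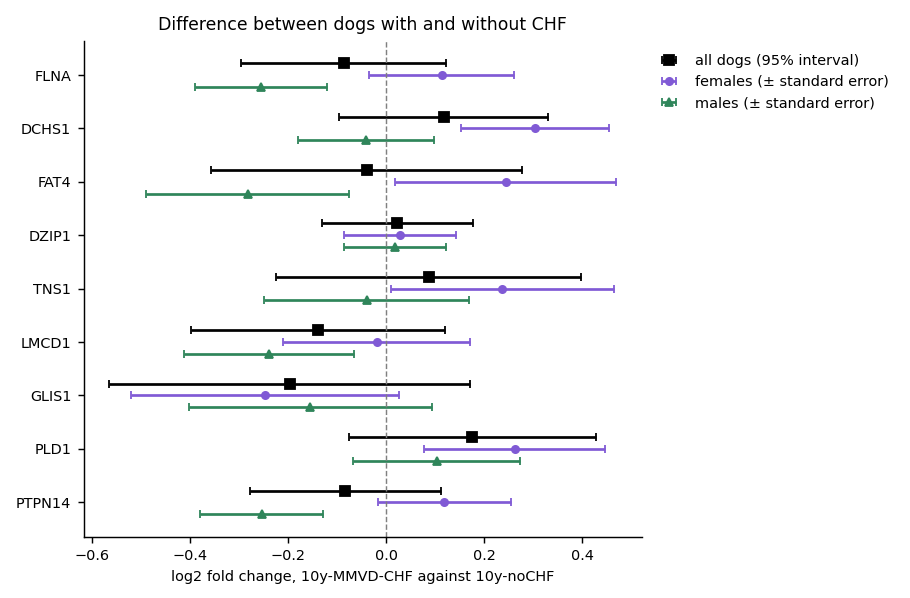
Log2 fold change between 10y-MMVD-CHF and 10y-noCHF dogs (horizontal axis) for each gene, over all 34 dogs with its 95% interval (black) and within females (purple) and males (green) with standard errors. All 9 black intervals cross 0, and the female estimate lies to the right of the male one for 8 genes, GLIS1 being the exception.

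The second question was whether sex mattered, since FLNA is X-linked. None of the 9 differed between males and females (0 of 9 by edgeR and by DESeq2, 0 at an unadjusted p below 0.05), where 0.143% of all features passed by edgeR. FLNA was 0.05 ± 0.10 higher in males on the log2 scale (SE; edgeR FDR = 0.9997). The largest estimates were LMCD1, at 0.21 ± 0.13 higher in males, and PLD1, at -0.18 ± 0.12 in males against females.

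The difference with CHF was then compared between the sexes. The female estimate exceeded the male estimate for 8 of 9 genes. For DZIP1 the gap was small (0.029 against 0.018), and over its human span the order was the other way (-0.0011 against 0.0128). The share of all features with a higher female estimate was not counted, and their median interaction, male minus female, was -0.0028. The interaction passed for none (0 of 9, where 0% of all features passed and 1178 had an unadjusted p below 0.05). DESeq2 called 3 features and 0 of the 9, although 1 of the 9 had an unadjusted p below 0.05 there. PTPN14 came nearest, with a log2 fold change of 0.12 ± 0.14 in females and -0.25 ± 0.12 in males (edgeR interaction p = 0.0515, FDR = 0.830). FLNA had 0.11 ± 0.15 and -0.26 ± 0.14, FAT4 0.24 ± 0.23 and -0.28 ± 0.21, and DCHS1 0.30 ± 0.15 and -0.04 ± 0.14. All of these estimates come from the same dogs and are not independent of each other.

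The genes also varied together across dogs. Correlations were computed on log2(CPM + 1) with CHF and sex effects removed, over 34 dogs and 36 pairs of genes. Of these, 20 passed an FDR of 0.1 on Spearman's rho by two-sided permutation tests with 100000 resamples, 17 positive and 3 negative. That is 55.6% of the pairs, and the weakest of them had a rho of 0.357 in size. Between the 9 genes and all features with a mean of at least 50 counts, 33.6% of relations were at least as strong, so correlation between genes was common in these libraries. FLNA, DCHS1, FAT4, PTPN14, DZIP1 and LMCD1 were positively correlated in all 15 of the pairs they form, and each of the 15 passed (on Pearson's r, DZIP1 with PTPN14 did not). The 3 negative pairs joined TNS1 to DCHS1, DZIP1 and LMCD1. None of these 3 passed without CAV614 and CAV1047, a setting chosen after the data were seen, where 16 pairs passed and all were positive. LMCD1 with PTPN14, a pair of the block, did not pass there either (rho 0.316, adjusted permutation p = 0.14). The rho of TNS1 was then -0.338 with DCHS1 and -0.355 with LMCD1, close to the -0.357 and -0.433 over all dogs. With DZIP1 it was -0.239, against -0.381.

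DCHS1 and PTPN14 formed the strongest pair, with Spearman's rho of 0.796 and Pearson's r of 0.778. Both had a permutation p of 1e-05, the lowest value possible with this many resamples, or 0.00012 and 9e-05 after adjustment over the 36 pairs. Fitted in each group alone, rho was 0.679 in 10y-noCHF and 0.729 in 10y-MMVD-CHF. Among the 16430 features with a mean of at least 50 counts, 0.469% followed DCHS1 more closely than PTPN14 did.

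DCHS1 and FAT4, the ligand and its receptor, had rho of 0.766 and r of 0.775 (permutation p = 1e-05 for each; adjusted p = 0.00012 and 9e-05). Leaving out the 2 dogs farthest from the median of DCHS1 gave r = 0.774. Fitted in each group alone, rho was 0.547 in 10y-noCHF and 0.921 in 10y-MMVD-CHF, and the difference between groups was not tested. Of the 16430 features, 0.816% followed DCHS1 more closely than FAT4 did.

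TNS1 and PLD1 made the other close pair, with rho of 0.693 and r of 0.731 (permutation p = 1e-05 for each; adjusted p = 0.00012 and 9e-05). Leaving out the 2 most extreme dogs gave r = 0.646, and rho was 0.651 in 10y-noCHF and 0.704 in 10y-MMVD-CHF alone. Of the 16430 features, 7.92% followed TNS1 more closely than PLD1 did, and 1.10% followed PLD1 more closely than TNS1 did. FAT4 and DZIP1 had rho of 0.686 (permutation p = 3e-05, adjusted p = 0.00027) and FAT4 and LMCD1 0.681 (permutation p = 4e-05, adjusted p = 0.000288). FLNA was tied most to FAT4 (rho 0.623, adjusted permutation p = 0.000669) and DCHS1 (0.609, adjusted permutation p = 0.000765). GLIS1 stood outside, passing only with LMCD1 (rho 0.413, adjusted permutation p = 0.0343). In each group alone this pair had rho of 0.579 in 10y-noCHF (adjusted permutation p = 0.0612) and 0.118 in 10y-MMVD-CHF (adjusted permutation p = 0.86). The difference between groups was not tested. FLNA and TNS1 were not correlated over all dogs (rho -0.01), although rho was 0.326 in 10y-noCHF and -0.518 in 10y-MMVD-CHF alone, neither of which passed, a difference that was not tested.

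**Figure D3:**
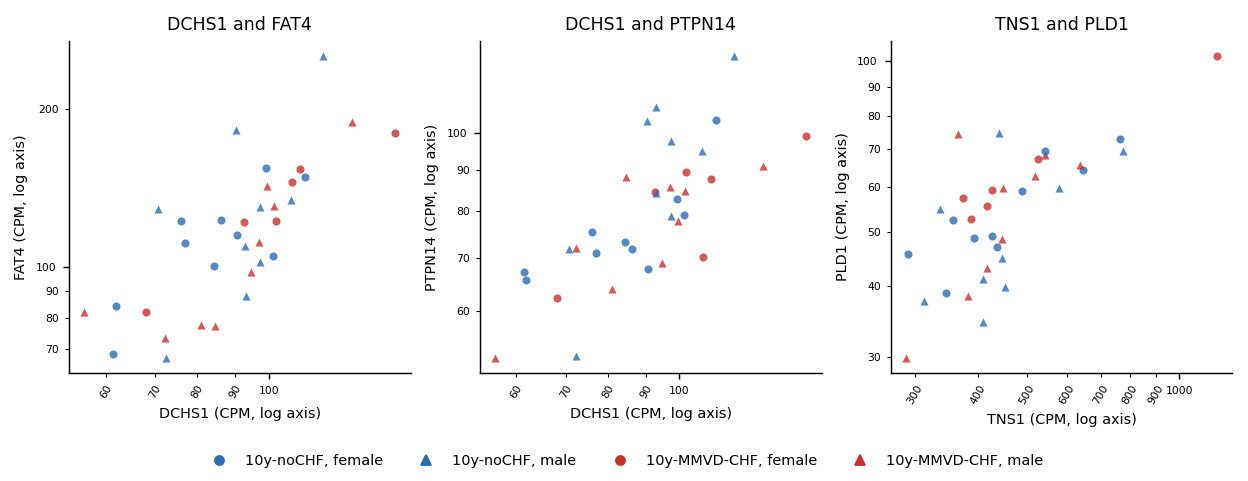
Normalised counts of FAT4 against DCHS1, PTPN14 against DCHS1 and PLD1 against TNS1 in each of the 34 dogs (CPM, log axes), coloured by CHF group and shaped by sex. The points of both groups lie along the same rising bands, with Spearman's rho of 0.766, 0.796 and 0.693 once CHF and sex are removed.

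Heart muscle moved with most of these genes. Averaged over the 19 cardiomyocyte markers, log2(CPM + 1) ran from 1.17 (CAV749) to 10.8 (CAV1047), and was 6.20 ± 3.02 in 10y-noCHF and 6.49 ± 2.69 in 10y-MMVD-CHF (SD). By permutation tests over 9 relations, 8 of 9 genes were correlated with it at an FDR below 0.1, GLIS1 being the exception (rho -0.13). TNS1 rose with the markers (rho 0.782, r 0.727, permutation p = 1e-05 for each, adjusted p = 4.5e-05), as did PLD1 (rho 0.538, r 0.473, permutation p = 0.00144 and 0.00488, adjusted p = 0.00216 and 0.00732). LMCD1 fell as they rose (rho -0.723, r -0.687, permutation p = 1e-05 for each, adjusted p = 4.5e-05).

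FAT4 (rho -0.604), DZIP1 (-0.582), DCHS1 (-0.545), PTPN14 (-0.400) and FLNA (-0.366) also fell as the markers rose. The adjusted permutation p was 0.00066, 0.000697, 0.00175, 0.0251 and 0.0389. As a term in edgeR's fit, chosen after the data were seen, the marker mean passed for the same 8 genes, where 38.6% of all features passed, so such a relation was common in these libraries. Without CAV614 and CAV1047 the same 8 passed, and rho was 0.718 for TNS1 and -0.680 for LMCD1.

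**Figure D4:**
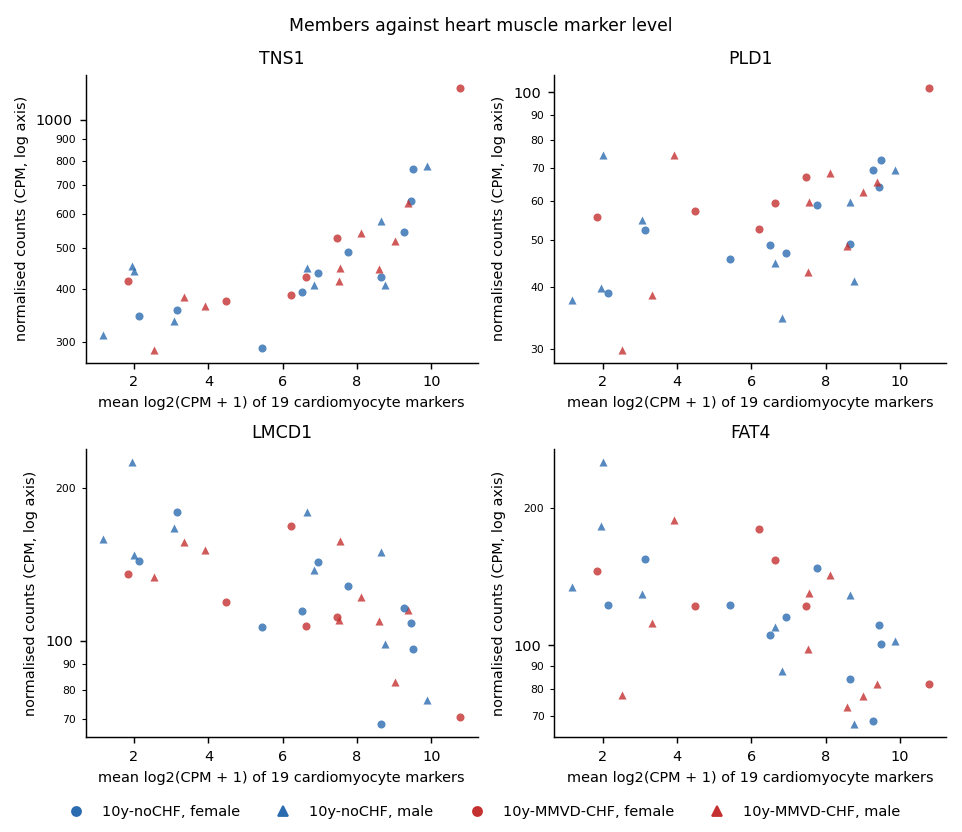
TNS1, PLD1, LMCD1 and FAT4 (CPM, log axis) against the average log2(CPM + 1) over 19 cardiomyocyte markers in each of the 34 dogs, coloured by CHF group and shaped by sex. TNS1 and PLD1 climb and LMCD1 and FAT4 decline from left to right, with Spearman's rho of 0.782, 0.538, -0.723 and -0.604.

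With the cardiomyocyte mean removed as well, 13 of the 36 pairs passed, 12 of them positive. DCHS1 with PTPN14 (rho 0.731), TNS1 with PLD1 (0.673), DCHS1 with FAT4 (0.654), FLNA with FAT4 (0.577), FAT4 with PTPN14 (0.563) and FLNA with DCHS1 (0.531) were among these. Of the 15 pairs within the block of 6 genes, 8 passed and 7 did not. The latter were LMCD1 with DCHS1 (0.209), DZIP1 (0.210), PTPN14 (0.172) and FLNA (0.343), and DZIP1 with PTPN14 (0.202), FLNA (0.357) and DCHS1 (0.335). FAT4 with PLD1 (0.521), FAT4 with TNS1 (0.369) and GLIS1 with PTPN14 (-0.369) passed here and not before. The negative pairs of TNS1 came to rho of 0.02 with DCHS1, 0.06 with DZIP1 and 0.09 with LMCD1.

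**Figure D5:**
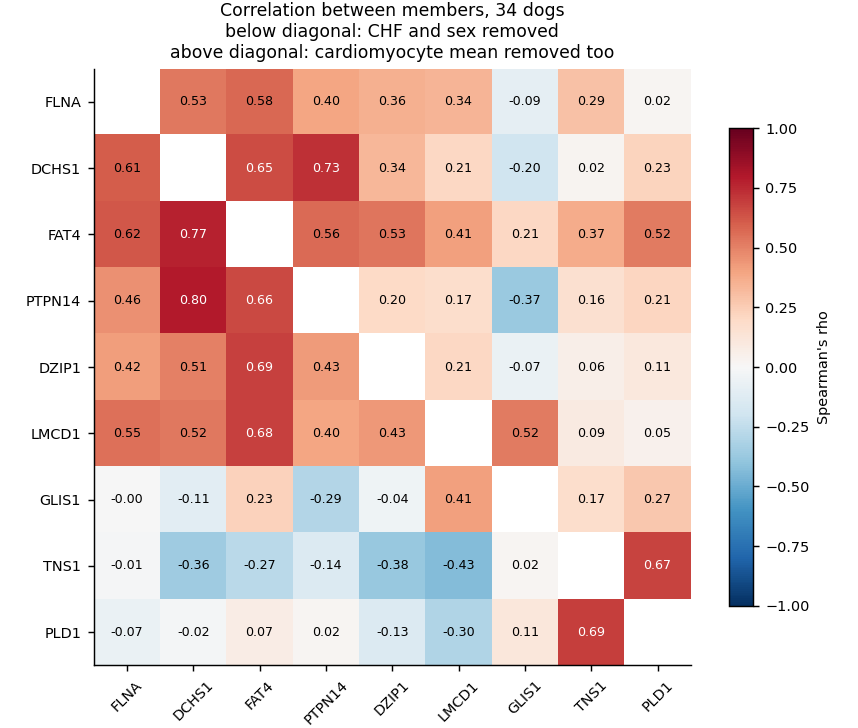
Spearman's rho for each pair of the 9 genes over 34 dogs (colour from -1 in blue to 1 in red), below the diagonal with CHF and sex removed and above it with the cardiomyocyte marker mean removed too. The block of FLNA, DCHS1, FAT4, PTPN14, DZIP1 and LMCD1 is red below the diagonal, and the pair of TNS1 and PLD1 stays red above it at 0.67.

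Markers of other cells were set beside the 9 genes in 45 further relations, chosen after the data were seen. The mean of the valve interstitial cell markers rose with DCHS1 (rho 0.800, r 0.851, permutation p = 1e-05 for each, adjusted p = 0.000225 and 0.000113), FAT4 (rho 0.778), PTPN14 (0.697), LMCD1 (0.659), DZIP1 (0.617) and FLNA (0.602). The adjusted permutation p of the last 5 lay between 0.000225 and 0.00118. TNS1 fell with it (rho -0.436, adjusted permutation p = 0.0442), and GLIS1 (0.03) and PLD1 (-0.20) did not pass. FLNA also rose with the smooth muscle markers (rho 0.603, r 0.579, permutation p = 0.00021 and 0.00047, adjusted p = 0.00118 and 0.00235), with rho of 0.830 among 10y-noCHF and 0.257 among 10y-MMVD-CHF dogs in the residuals over all dogs, a difference that was not tested. TNS1 did so less closely (rho 0.429, adjusted permutation p = 0.0469), and DZIP1 rose with macrophage markers (rho 0.628, adjusted permutation p = 0.000975). Weaker relations to macrophage markers passed for DCHS1 (rho 0.419), FAT4 (0.385) and TNS1 (-0.434). On Pearson's r the one of FAT4 did not (adjusted permutation p = 0.205). With endothelial markers, DZIP1 (-0.472), LMCD1 (-0.382) and GLIS1 (-0.363) passed. GLIS1 did so narrowly (adjusted permutation p = 0.0987) and did not pass on Pearson's r (adjusted permutation p = 0.104). With red blood cell markers 0 of 9 passed, the lowest adjusted permutation p on Spearman's rho there being 0.511. The share of all features that moved with these other marker means was not counted. These relations are therefore not shown to be particular to the 9 genes. The part of cell makeup in the correlations between the genes was not tested beyond the cardiomyocyte mean.

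For each gene the 3 features that followed it most closely over the 34 dogs were listed, by Spearman's rho with CHF and sex removed, as a description. FLNA was nearest to SYNPO (0.884), MYH10 (0.880) and MYH9 (0.832). DCHS1 was nearest to MXRA5 (0.901), VCAN (0.878) and NOTCH2 (0.872), and FAT4 to PLCE1 (0.912), RECK (0.878) and NOTCH2 (0.877). PTPN14 was nearest to AGRN (0.897), FNDC3B (0.873) and GTF3C4 (0.861). NOTCH2 was thus on the lists of both cadherins. DZIP1 was nearest to CARD6 (0.832), CRTAP (0.814) and SRPRA (0.811), LMCD1 to FBLN5 (0.840), GPR173 (0.806) and SLC2A10 (0.801), and GLIS1 to CLTRN (0.713), ZNF821 (0.699) and EPHX2 (0.697). TNS1 was nearest to PPP1R12B (0.937), MFN2 (0.925) and ALDH4A1 (0.914), whose own rho with the cardiomyocyte markers was 0.832 to 0.903. PLD1 was nearest to MAPRE2 (0.843), FOXO3B (0.841) and IL17RD (0.841), and FOXO3B, a near copy of FOXO3, can share its reads.

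The genes around the 9 were examined in 10 lists of relatives and partners, 129 genes in all. None of the 129 passed for CHF by edgeR or by DESeq2. At an unadjusted p below 0.05 there were 14, or 10.9%, beside 6.31% of all features. The lowest FDR was 0.428, for TNXB.

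Among the filamin relatives and partners (0 of 13 passed, 8 estimates above 0), FBLIM1, which links filamin to integrin sites, had 271 ± 26.2 CPM with CHF and 246 ± 27.1 CPM without (SD; log2 fold change 0.15 ± 0.05, edgeR FDR = 0.532). FLNC, the filamin of striated muscle, differed by 0.06 ± 0.32 and followed the cardiomyocyte markers (rho 0.911). Across dogs FLNA fell as PTPN12 rose, a phosphatase that binds filamin A (rho -0.642, r -0.590, permutation p = 9e-05 and 0.00024, adjusted p = 0.00104 and 0.0011 over 23 relations chosen after the data were seen).

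In the Fat, Dachsous and planar polarity list (0 of 18 passed, 11 estimates above 0), FAT1 was the other abundant family member, at 230 ± 66.8 CPM with CHF and 211 ± 47.2 CPM without. DCHS2, FAT2 and FAT3 stayed at or below 4.29 CPM in every dog. PRICKLE2 was the only gene of the list with an unadjusted p below 0.05, at 0.26 ± 0.10 (edgeR FDR = 0.607). DCHS1 rose with LIX1L (rho 0.677, r 0.750, permutation p = 2e-05 and 1e-05, adjusted p = 0.00046 and 0.000153) and SEPTIN9 (rho 0.624, adjusted permutation p = 0.00115), whose products bind DCHS1, and FAT4 with FAT1 (rho 0.503, adjusted permutation p = 0.0126). The limit given above for relations to known partners holds for these relations of DCHS1 and FAT4 too. FJX1, a kinase that modifies the cadherins, had 8.19 ± 3.23 CPM with CHF and 9.14 ± 2.83 CPM without. It did not follow DCHS1 (rho 0.01).

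The core of the Hippo pathway had more estimates above 0 than below (14 of 19, median 0.09; 0 passed). Over all features 52.6% of estimates were above 0, and the difference was not tested. TEAD1, a DNA-binding partner of YAP, had 136 ± 20.7 CPM with CHF and 117 ± 22.01 CPM without, and 15 of 15 CHF dogs were above the 10y-noCHF median, yet the log2 fold change of 0.23 ± 0.08 did not pass (edgeR FDR = 0.592). The kinase STK4 (0.17 ± 0.06, edgeR FDR = 0.598), its partner SAV1 (0.12 ± 0.05, edgeR FDR = 0.625) and AMOTL1 (0.17 ± 0.07, edgeR FDR = 0.741) also had an unadjusted p below 0.05. AMOTL1 fell outside the rule for named genes and was added after its values were seen. YAP1 differed by 0.09 ± 0.06 and WWTR1 by 0.09 ± 0.08. Of 10 target genes of YAP, 8 had estimates below 0 and 0 passed, with NT5E at -0.37 ± 0.15 (edgeR FDR = 0.662) and ASAP1 at -0.19 ± 0.08 (edgeR FDR = 0.672). Across dogs PTPN14 rose with YAP1 (rho 0.466, r 0.484, permutation p = 0.00557 and 0.00359, adjusted p = 0.0164 and 0.00917) but its relations to CCN1 (0.286), CCN2 (0.269) and ANKRD1 (-0.349) did not pass. ANKRD1 itself followed the cardiomyocyte markers (rho 0.964).

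Among the PTPN14 relatives (0 of 7 passed, 6 estimates above 0), PTPN21, its closest paralogue, had 224 ± 32.9 CPM with CHF and 192 ± 31.8 CPM without (0.22 ± 0.08, edgeR FDR = 0.558), and PTPN11 differed by 0.16 ± 0.07 (edgeR FDR = 0.733). In the cilium and Hedgehog list (0 of 22 passed, 10 above 0), CTNNB1, whose product beta-catenin works with the partners of DZIP1, had 445 ± 54.3 CPM with CHF and 392 ± 40.2 CPM without (0.18 ± 0.06, edgeR FDR = 0.480). DZIP1 rose with CBY1, a cilium protein that it binds (rho 0.412, r 0.507, permutation p = 0.0155 and 0.00217, adjusted p = 0.0396 and 0.00624), but not with IFT88 (0.03). DZIP1L stayed at or below 0.319 CPM.

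The tensin list held no gene with an unadjusted p below 0.05 (0 of 11 passed, 5 above 0). TNS2 (214 ± 38.4 CPM with CHF, 216 ± 43.7 CPM without) and TNS3 (46.5 ± 8.602 and 48.0 ± 10.3 CPM) were present and TNS4 was at most 1.35 CPM. TNS1 and TNS3 ran in opposite directions across dogs (rho -0.491, r -0.594, permutation p = 0.00377 and 0.00016, adjusted p = 0.0145 and 0.00092), with rho of -0.23 once the cardiomyocyte mean was removed. In the phospholipase D list (0 of 9 passed, 6 above 0) no gene had an unadjusted p below 0.05. PLD2 differed by 0.00 ± 0.10 and fell as PLD1 rose (rho -0.583, r -0.654, permutation p = 0.00048 and 2e-05, adjusted p = 0.00276 and 0.000153), with rho of -0.43 once the cardiomyocyte mean was removed.

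Of the LMCD1 partners (0 of 8 passed, 2 above 0), NFATC1, a transcription factor switched on by calcineurin, had 93.8 ± 16.6 CPM with CHF and 116 ± 25.6 CPM without (-0.31 ± 0.10, edgeR FDR = 0.446). RCAN1, a calcineurin regulator and NFAT target, had 112 ± 19.1 and 138 ± 29.7 CPM (-0.31 ± 0.10, edgeR FDR = 0.446), and only 1 of 15 CHF dogs was above the 10y-noCHF median. Neither passed. GATA6, which LMCD1 represses, differed by -0.02 ± 0.08 and did not follow LMCD1 (rho 0.119).

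The genes of connective tissue syndromes that include mitral valve prolapse showed 0 of 14 past the threshold and 9 estimates above 0. TNXB, which encodes tenascin X, had 511 ± 115.1 CPM with CHF and 646 ± 129.9 CPM without (-0.34 ± 0.11, edgeR FDR = 0.428), and 2 of 15 CHF dogs were above the 10y-noCHF median. Reads of TNXB can be shared with the feature TNXA, named for a near-identical copy in people, so this value is uncertain. The paper listed TNXA among its differentially expressed genes, lower with CHF. FBN1, which encodes fibrillin 1, differed by 0.22 ± 0.13 (edgeR FDR = 0.848) and TGFBR1 by 0.16 ± 0.12 (edgeR FDR = 0.896).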

How the data were processed

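Poly-A RNA of 34 mitral valves was sequenced in read pairs. The authors aligned them with STAR (version not given in the sources used here) on the canFam4 assembly and deposited raw counts per feature from featureCounts 2.0.3, which assigned reads to canine RefSeq exons and to spans of aligned human genes, without strand, with both reads of a pair counted separately (71% of counts above 0 were even). Of 35 columns of counts, 1 matched no labelled dog and was not used. Each dog is 1 sample of its group. No 2 dogs had identical counts, and the lowest chi-square per feature over the 561 pairs was 50.9.

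Differences were tested in edgeR 4.0.16 (the quasi-likelihood test after TMM scaling, sum of at least 100 counts, sex as a fixed effect, FDR 0.1) in R 4.3.3. SEs were derived from the test statistic. Alternatives were DESeq2 1.42.0, limma 3.58.1 voom, other normalizations, filters, covariates, sexes apart and leaving out each dog. Correlations used log2(CPM + 1), with scipy 1.17.1 and numpy 2.4.6. The tests were also run on simulated data. The 9 genes and the lists were chosen with earlier results of these data known. Genes named are the 9, fixed relatives, in each list the 3 smallest p-values, and the 3 features nearest to each of the 9; 1 gene that this rule names is not reported here. Counting error was not set against the differences between dogs for each of the 9 genes. Introns in the spans, overlapping genes and reads of a pair counted separately also limit the values.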

Additional observations from a re-analysis of the deposited data

Results flagged for a closer look

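In 36 tests (9 genes in 4 groups of CHF and sex) for a dog far from the rest of its group by Dixon's gap, 4 values stood out, where chance gives about 1.8. The 10y-MMVD-CHF female CAV1047 gave 3 of them. It had the highest TNS1 of its 6 dogs (1188 CPM, the next being 525.9), the highest PLD1 (102.2 CPM, the next being 67.1) and the lowest DZIP1 (64.6 CPM, the next being 93.4). This dog also had the highest level of the 19 cardiomyocyte markers (mean log2(CPM + 1) of 10.8) and the lowest total counts of the 34, and the part of these in its values was not tested. The fourth value was the PTPN14 of the 10y-noCHF female CAV1041, 104.0 CPM, where the next of the 10 dogs had 82.9 CPM.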

How the results depend on the processing

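Across 406 recomputed log2 fold changes for CHF, 394 kept their direction and side of the threshold, 12 changed direction and 0 crossed the threshold (lowest FDR 0.503). Those that changed direction were, in females alone, FLNA (0.11), FAT4 (0.25) and PTPN14 (0.12), and in males alone DCHS1 (-0.0413) and TNS1 (-0.0423). FAT4 also did so with the cardiomyocyte covariate (0.0186), with voom (0.00202) and without CAV614 and CAV1047 (0.0385), and TNS1 without these 2 dogs (-0.0468). Leaving out 1 dog gave -0.0986 to 0.0570 for FAT4 (reversed without CAV1939 or CAV1049) and -0.0829 to 0.161 for TNS1 (reversed without CAV1047). The other 7 genes kept their direction without any 1 dog. The cause was not tested. The count of all features called for CHF, 23, was 13 without the sex term, 0 in females or males alone (2014 and 671 features had an unadjusted p below 0.05), 64 with DESeq2, 9 at an FDR of 0.05, and 8 (without CAV1519 or CAV2102) to 28 without 1 dog. The interaction gave 3 features with DESeq2 against 0 with edgeR. Correlated pairs numbered 13 with the cardiomyocyte mean removed, 13 in 10y-noCHF and 12 in 10y-MMVD-CHF alone, where fewer dogs entered. The pairs DCHS1 and TNS1, DZIP1 and TNS1, and TNS1 and LMCD1 turned to 0.0237, 0.0597 and 0.0918 with the mean removed. No paired analysis was possible because the replicate numbers only name dogs in accession order, and the same number in different groups stands for unrelated dogs. GLIS1 rested on the fewest counts and had the widest interval.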
